A study of Mus musculus with 8 samples.

Results

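Kupffer cells are the resident macrophages of the liver, and the values below describe 10 genes that mark them in the mouse: Clec4f, Vsig4, Cd5l, Marco, Timd4, Adgre1, Csf1r, C1qa, C1qb and C1qc. They were taken by gene symbol from a table of 45777 genes, and all 10 were found and passed the filter on low counts. Liver polyadenylated RNA was sequenced in 8 libraries, 4 from C2-AKT mice and 4 from control mice. C2-AKT mice carry a modified AKT kinase at the ROSA26 locus and an Alb-Cre transgene, which drives Cre in hepatocytes, so the kinase is made in hepatocytes and not by design in Kupffer cells. Control mice are labelled wild type and C2-AKT (-/-), and whether they carried Cre is not stated. All mice were C57BL6 males on a standard diet until 8 weeks of age, then on a high-fat diet for 10 weeks. Whether every library is a separate animal is not stated, and the p-values therefore describe library-to-library spread, which may be technical. A number in the titles, 4 in C2-AKT and 2 in control libraries, cannot be told apart from the genotype.

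Kupffer cells line the liver sinusoids and clear particles, microbes and dying cells from portal blood. Their survival depends on signalling through the CSF1 receptor, and their identity is kept by factors such as LXR-alpha together with Notch and BMP signals from neighbouring endothelial and stellate cells. In obese mice, part of the resident population can be replaced by cells derived from monocytes, which at first lack Timd4. The C1q chains, which start the classical complement pathway, are made in the liver mainly by these macrophages, whereas most other complement proteins come from hepatocytes.

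None of the 10 genes passed the test for a difference between C2-AKT and control livers (edgeR, quasi-likelihood), and adjusted p was 0.9999 for each of them. Of all 15686 genes tested, 0.0255% passed at an adjusted p below 0.05. At an unadjusted p below 0.05, 0 of the 10 passed, against 5.13% of all genes, and the smallest unadjusted p among them was 0.120, for Cd5l. DESeq2 called 0 of the 10, against 0.309% of the genes to which it gave an adjusted p. On simulated data DESeq2 made a larger share of false calls than edgeR, so its calls were treated as the less firm ones. The simulation gave every gene the same relative spread and held no library of unusual composition. Whether its result carries over to these data was not tested. The C2-AKT and control libraries overlapped for each of the 10 genes, while 2.98% of all genes had groups that did not overlap. Estimated log2 fold changes (C2-AKT over control) ranged from -0.59 for Marco to 0.17 for Csf1r, with 8 below 0, 2 above 0 and a median of -0.09, beside a median of -0.01 over all genes. In bulk liver, fewer Kupffer cells and less RNA per Kupffer cell cannot be told apart.

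**Figure D1:**
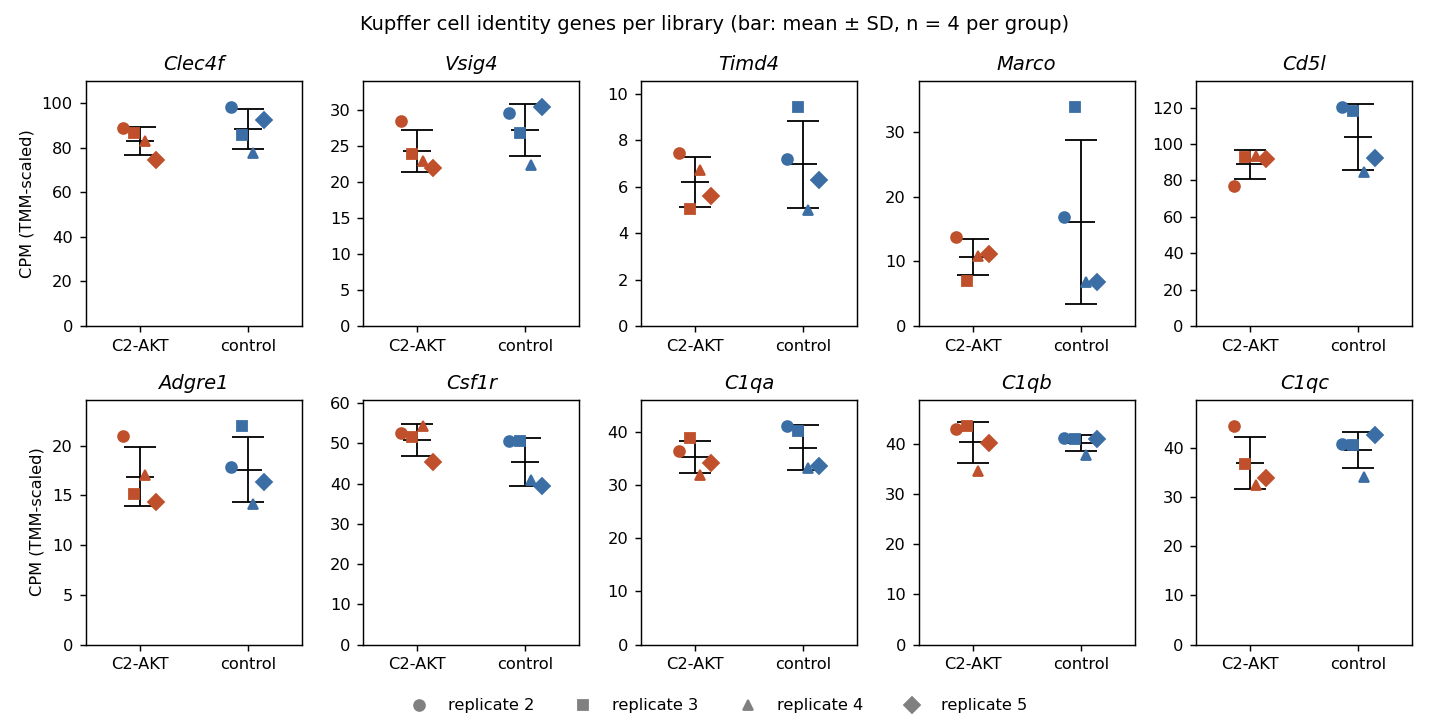
TMM-scaled CPM (reads per 1 M reads) of the 10 genes, with C2-AKT libraries left and control libraries right in each panel, 1 point per library and bars for the mean and SD (n = 4 each). The groups overlap in every panel, and Marco has the widest spread, with control replicate 3 at 33.8 CPM.

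C2-AKT replicate 5 stood apart as a library. Genes of pancreatic acinar cells took 8.91% of its counts, and genes removed by the low-count filter held 17.2%. In the other libraries the acinar list summed to 7.36 to 27.0 CPM of all counts. Library sizes were therefore computed after the filter, and total counts ranged from 51.4 M to 63.8 M (M, mega). The noncoding transcript of the targeted locus, Gt(ROSA)26Sor, had 0.422 ± 0.331 CPM in C2-AKT livers and 6.12 ± 1.55 CPM in control livers (SD, n = 4 each). Those groups did not overlap (edgeR adjusted p = 0.181, DESeq2 adjusted p = 0.0339). The transgene itself was not analysed here, and the endogenous kinase gene Akt1 had 42.7 ± 10.1 CPM in C2-AKT livers and 41.4 ± 7.43 CPM in control livers. Alb, the defining transcript of hepatocytes, had 63875 ± 5450 CPM in C2-AKT livers and 54614 ± 10588 CPM in control livers.

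Clec4f encodes a C-type lectin that in the mouse is found on Kupffer cells and hardly on other macrophages. It lies on the minus strand of chromosome 6 (83644542 to 83656116, GRCm38), at a distance of 29.4 Mb from Gt(ROSA)26Sor. Clec4f had 88.6, 86.6, 82.8 and 74.2 CPM in C2-AKT replicates 2 to 5, against 98.0, 85.5, 77.4 and 92.4 CPM in control replicates 2 to 5. The lowest value was that of C2-AKT replicate 5, just below control replicate 4, and the other C2-AKT libraries lay inside the control range. The log2 fold change was -0.09 ± 0.10 (SE), and its 95% interval ran from -0.31 to 0.13, which is 0.805-fold to 1.10-fold.

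Vsig4 encodes the complement receptor CRIg, which binds C3 fragments on circulating bacteria. On chromosome X (96247201 to 96293438), it had 28.5, 23.8, 22.9 and 21.9 CPM in C2-AKT replicates 2 to 5, against 29.5, 26.8, 22.3 and 30.4 CPM in control replicates 2 to 5. C2-AKT replicate 2 lay among the 3 higher control libraries, and the other C2-AKT libraries lay near control replicate 4, the lowest control library. The interval of its log2 fold change ran from -0.44 to 0.11 around -0.16 ± 0.12 (SE). Cd5l encodes AIM, a secreted scavenger-receptor-like protein that macrophages release into blood, and lies on chromosome 3 (87357881 to 87371074). Cd5l had 77.0, 92.9, 93.5 and 91.8 CPM in C2-AKT replicates 2 to 5, against 120.2, 118, 84.4 and 92.4 CPM in control replicates 2 to 5. Control replicates 2 and 3 were above all other libraries, and control replicates 4 and 5 lay inside the C2-AKT range. Its log2 fold change was -0.22 ± 0.13 (SE; interval -0.52 to 0.07).

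Timd4 and Marco encode receptors for cargo that Kupffer cells take up, and Timd4 marks long-resident cells. Timd4 encodes a phosphatidylserine receptor that binds dying cells and lies on chromosome 11 (46810786 to 46844333). It had 7.45, 5.05, 6.74 and 5.58 CPM in C2-AKT replicates 2 to 5, against 7.19, 9.43, 4.98 and 6.27 CPM in control replicates 2 to 5. Control replicate 3 was highest and control replicate 4 lowest, so the control libraries bracketed all C2-AKT libraries (log2 fold change -0.17 ± 0.20, SE; interval -0.62 to 0.29). Marco encodes a scavenger receptor with a collagenous domain and lies on chromosome 1 (120474538 to 120505024). It had 13.8, 6.97, 10.9 and 11.1 CPM in C2-AKT replicates 2 to 5, against 16.9, 33.8, 6.77 and 6.83 CPM in control replicates 2 to 5. Control replicates 2 and 3 were the highest libraries and control replicates 4 and 5 the lowest, with a coefficient of variation of 26.3% in C2-AKT and 79.2% in control livers.

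For Marco the estimate was -0.59 ± 0.48 (SE; log2, interval -1.65 to 0.47), the widest interval of the 10 genes, and without control replicate 3 it was 0.07. The Timd4 estimate without that library was 0.01. The within-group SD of log2 CPM for Marco, 0.84, lay at the 98.5th percentile of the 12589 genes averaging 1 CPM or more, whose median was 0.20. Timd4 was at the 77.8th percentile, Clec4f at the 22.0th and C1qb at the 14.9th. Intervals for 7 genes lay within 0.5 of 0 on the log2 scale, those of Cd5l and Timd4 within 1, and that of Marco reached past -1.

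**Figure D2:**
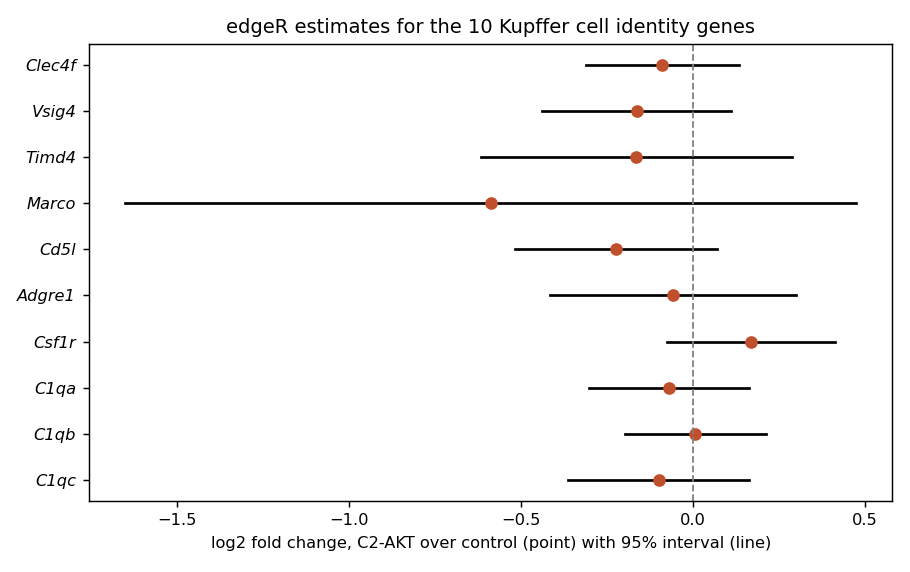
Log2 fold change of each gene, C2-AKT over control, from edgeR's quasi-likelihood test (points), with 95% intervals (lines). Every interval includes 0, and that of Marco is the widest, from -1.65 to 0.47.

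Adgre1 encodes an adhesion receptor that serves as a common antigen of mouse tissue macrophages, and lies on chromosome 17 (57358581 to 57483529). Adgre1 had 21.0, 15.1, 17.1 and 14.3 CPM in C2-AKT replicates 2 to 5, against 17.9, 22.0, 14.2 and 16.3 CPM in control replicates 2 to 5. Each group held 1 library well above its others, C2-AKT replicate 2 and control replicate 3 (log2 fold change -0.06 ± 0.16, SE; interval -0.42 to 0.30). The estimate was 0.01 without C2-AKT replicate 5 and 0.07 without control replicate 3. Csf1r encodes the receptor for CSF1 and IL-34 on which macrophages depend, and lies on chromosome 18 (61105572 to 61131139). It had 52.7, 51.5, 54.4 and 45.3 CPM in C2-AKT replicates 2 to 5, against 50.5, 50.5, 40.9 and 39.5 CPM in control replicates 2 to 5. The 3 highest C2-AKT libraries were above every control library and the remaining one lay inside the control range. Csf1r had the highest estimate of the 10 genes (0.17 ± 0.11, SE, log2; interval -0.08 to 0.41), with 0 inside the interval. Of its transcripts' stretches of 50 bases, 14.3% also occur, on either strand, in annotated transcripts of Hmgxb3. Part of its reads may therefore be shared, and its values are uncertain. For the other 9 genes that share was 0%. In RefSeq, Gm18069 and Gm20243 overlap the span of Adgre1, and Mir6983 and Gm52352 that of Csf1r.

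C1qa, C1qb and C1qc encode the chains of C1q, each with a collagen-like stalk and a globular head. The genes lie side by side on the minus strand of chromosome 4, in the order C1qb (136880126 to 136886200), C1qc (136889801 to 136892936) and C1qa (136895916 to 136898844), within 18.7 kb. C1qa had 36.3, 38.7, 31.8 and 34.1 CPM in C2-AKT replicates 2 to 5, against 41.1, 40.1, 33.2 and 33.6 CPM in control replicates 2 to 5. C1qb had 43.1, 43.7, 34.7 and 40.2 CPM in C2-AKT replicates 2 to 5, against 41.2, 41.0, 37.9 and 41.0 CPM in control replicates 2 to 5. C1qc had 44.5, 36.8, 32.6 and 33.8 CPM in C2-AKT replicates 2 to 5, against 40.9, 40.6, 34.2 and 42.8 CPM in control replicates 2 to 5. C2-AKT replicate 4 was the lowest library for all 3 chains, and for C1qb the C2-AKT libraries reached both above and below the control range. The log2 fold changes were -0.07 (interval -0.30 to 0.16) for C1qa, 0.01 (-0.20 to 0.21) for C1qb and -0.10 (-0.36 to 0.16) for C1qc. With 1 library left out at a time, C1qa ranged from -0.12 (without C2-AKT replicate 3) to -0.02 (without control replicate 2). C1qb ranged from -0.03 (without C2-AKT replicate 3) to 0.07 (without C2-AKT replicate 4). C1qc ranged from -0.20 (without C2-AKT replicate 2) to -0.04 (without C2-AKT replicate 4).

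The windows before the start sites of C1qb, C1qc, Clec4f and Timd4 are shown because the C1q pair lies side by side at similar levels, Clec4f is the lineage marker and Timd4 the marker of long residence. RefSeq windows (GRCm38.p6) were available for 7 of the 10 genes. Each line gives 250 bases that end just before an annotated transcript start, read along the gene's strand. For C1qb, the bases after the window were not found in its GENCODE vM21 transcript, so that start is less firm. The C1qc and Timd4 windows reach into the gene spans given above. Capitals mark a match to 1 of 3 motifs searched on both strands: GAGGAAGT for PU.1, GTGGGAA for RBPJ and TGCTGAC for a MAF half-site, factors known in macrophages.
C1qb (chr4:136886201-136886450, minus strand): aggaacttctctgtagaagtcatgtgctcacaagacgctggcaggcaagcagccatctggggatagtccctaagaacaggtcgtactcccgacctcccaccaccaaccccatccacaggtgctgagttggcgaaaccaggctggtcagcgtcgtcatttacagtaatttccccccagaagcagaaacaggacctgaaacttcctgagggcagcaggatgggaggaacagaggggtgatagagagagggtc
C1qc (chr4:136892915-136893164, minus strand): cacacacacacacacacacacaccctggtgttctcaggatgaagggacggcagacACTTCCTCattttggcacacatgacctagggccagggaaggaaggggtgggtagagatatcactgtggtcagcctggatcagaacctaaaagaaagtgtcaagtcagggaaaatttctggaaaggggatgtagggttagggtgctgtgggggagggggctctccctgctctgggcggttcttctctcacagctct
Clec4f (chr6:83656117-83656366, minus strand): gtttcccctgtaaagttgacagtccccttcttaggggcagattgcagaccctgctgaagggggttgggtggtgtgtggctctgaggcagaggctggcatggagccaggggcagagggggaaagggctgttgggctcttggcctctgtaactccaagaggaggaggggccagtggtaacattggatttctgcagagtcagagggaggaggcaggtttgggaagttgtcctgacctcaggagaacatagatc
Timd4 (chr11:46810549-46810798, plus strand): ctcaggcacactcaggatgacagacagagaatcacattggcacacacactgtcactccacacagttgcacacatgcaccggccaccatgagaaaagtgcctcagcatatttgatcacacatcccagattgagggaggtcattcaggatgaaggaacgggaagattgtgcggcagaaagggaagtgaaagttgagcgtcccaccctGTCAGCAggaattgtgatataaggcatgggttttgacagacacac
The PU.1 motif occurred in 1 of the 7 windows, that of C1qc, 195 to 188 bases before the start on the opposite strand, and in 2.44% of 32817 such windows of all genes. The MAF half-site occurred in 1 of 7, that of Timd4, 45 to 39 bases before the start on the opposite strand, and in 3.81% of all windows. The RBPJ motif was in 0 of the 7 and in 5.42% of all windows. A match is only a match of letters, and each printed window holds at most 1.

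Levels of different genes were compared in the deposited TPM, which are scaled to transcript length. Over 8 libraries Cd5l was highest, at 80.5 ± 15.4 TPM (SD), and stood above C1qb in 7 of 8 libraries, by 0.36 ± 0.24 on the log2 scale. C1qb (62.0 ± 5.15 TPM), Clec4f (60.7 ± 7.53 TPM), C1qc (60.6 ± 6.93 TPM) and C1qa (56.7 ± 7.38 TPM) followed. Neighbours among these 4 did not differ beyond their spread, since C1qb exceeded Clec4f by 0.04 ± 0.13 (log2 TPM, higher in 5 of 8 libraries) and Clec4f exceeded C1qc by 0.00 ± 0.11 (4 of 8). C1qc exceeded C1qa by 0.10 ± 0.15 (7 of 8).

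Vsig4 (30.5 ± 4.13 TPM) was lower than C1qa in all 8 libraries and Csf1r (21.2 ± 3.61 TPM) was lower than Vsig4 in all 8. Marco (11.9 ± 8.23 TPM) was lower than Csf1r in 7 of 8. Marco and Adgre1 (9.10 ± 1.73 TPM) could not be ordered, with a log2 difference of 0.18 ± 0.62 and Marco higher in 5 of 8 libraries. Timd4 was the lowest, at 5.40 ± 1.46 TPM, below Adgre1 in all 8 libraries by 0.77 ± 0.15 on the log2 scale. TPM of C2-AKT replicate 5 include its pancreatic reads, which lowers its levels but not the order within it.

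**Figure D3:**
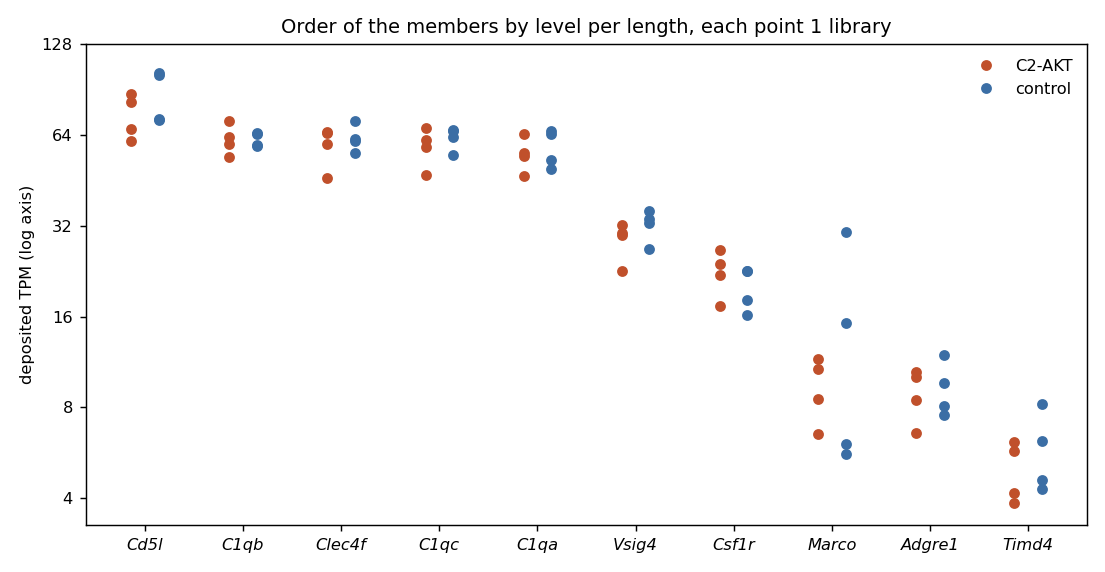
Deposited TPM (log axis) of the 10 genes in order of their mean, 1 point per library, C2-AKT left of control for each gene. C1qb, Clec4f, C1qc and C1qa lie close together, with means of 56.7 to 62.0 TPM, Timd4 is lowest, and the Marco points span from 5.62 to 30.5 TPM.

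Ratios within a library do not depend on how libraries are scaled, and C2-AKT was compared with control for 4 of them with exact permutation of the libraries (70 assignments, two-sided, smallest possible p 0.0286, adjusted over the 4). The ratio of Timd4 to Clec4f, which sets the long-residence marker against the lineage marker, was -3.73 ± 0.24 in C2-AKT and -3.68 ± 0.35 in control livers (log2 CPM ratio, SD, n = 4 each; exact p = 0.83, adjusted 0.83). The highest value, -3.17, was that of control replicate 3, and the lowest, -4.07, that of C2-AKT replicate 3. The ratio of Clec4f to Adgre1, lineage marker to general macrophage antigen, was 2.30 ± 0.18 in C2-AKT and 2.33 ± 0.25 in control livers (exact p = 0.83, adjusted 0.83). Among the C1q chains, C1qa to C1qb was -0.20 ± 0.06 in C2-AKT and -0.13 ± 0.13 in control livers (exact p = 0.371, adjusted 0.743). The ratio of C1qc to C1qb was -0.14 ± 0.14 in C2-AKT and -0.03 ± 0.09 in control livers (exact p = 0.229, adjusted 0.743).

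Library by library, the 10 genes often deviated together. All 10 were above their own mean over 8 libraries in control replicates 2 and 3, 9 of 10 in C2-AKT replicate 2, and 0 of 10 in control replicate 4 and in C2-AKT replicate 5. Their summed level was 413, 401, 387 and 372 CPM in C2-AKT replicates 2 to 5, against 463, 468, 356 and 401 CPM in control replicates 2 to 5. Control libraries held both the highest and the lowest sum. The median deviation from the mean in log2 CPM was -0.12 in C2-AKT replicate 5, and without that library the median log2 fold change of the 10 genes was -0.06. Without control replicate 3 it was -0.01, and without C2-AKT replicate 2 it was -0.17.

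**Figure D4:**
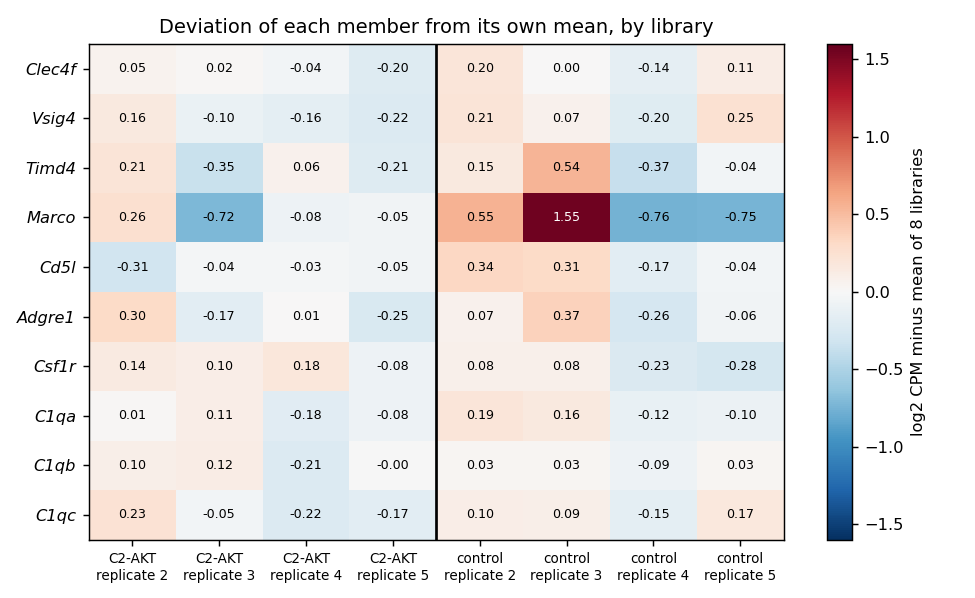
Deviation of each gene's log2 CPM from its own mean over 8 libraries, by library, C2-AKT left of the line and control right. Control replicates 2 and 3 are at or above 0 for all 10 genes, control replicate 4 and C2-AKT replicate 5 are at or below 0, and Marco in control replicate 3 has the largest deviation, 1.55.

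The genes with the most similar pattern over the 8 libraries, by Pearson's r with the mean standardised log2 CPM of the 10, were Trmu (0.985), Gm41637 (0.947), Gm8979 (0.934), Pex11g (0.926) and Paics (0.923). They were picked as the highest of all genes, so these values describe 8 libraries, which share depth and composition between genes, and carry no test. Trmu encodes a tRNA modifying enzyme of mitochondria, Pex11g a peroxisomal membrane protein and Paics an enzyme of purine synthesis. By the same measure, each of the 10 genes against the mean of the other 9 gave 0.351 for Csf1r, the lowest, and 0.807 for Adgre1, the highest.

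Of 13 other genes known from Kupffer cells, 0 passed in edgeR in either direction (DESeq2 0 called), with a median log2 fold change of -0.10. In edgeR, 1 of the 13 had an unadjusted p below 0.05, against 5.13% of all genes. Folr2, the folate receptor beta of resident macrophages, had 6.11 ± 0.66 CPM in C2-AKT livers and 7.62 ± 1.16 CPM in control livers (SD, n = 4 each). Its log2 fold change was -0.32 (edgeR adjusted p = 0.956). Slc40a1, the iron exporter ferroportin, had 129.5 ± 14.02 CPM in C2-AKT and 108 ± 23.2 CPM in control livers (log2 fold change 0.27, adjusted p = 0.9999). Hpgd, which inactivates prostaglandins and is not confined to macrophages, had a log2 fold change of 0.36. Paqr9, the most abundant of the list, had 250 ± 83.5 CPM in C2-AKT and 229 ± 50.1 CPM in control livers (log2 fold change 0.13). Which liver cells the Paqr9 reads came from was not tested.

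Of 16 transcription factors of Kupffer cells, 0 passed (edgeR, DESeq2 0 called), with a median log2 fold change of 0.05. The unadjusted p in edgeR was below 0.05 for 3 of the 16, against 5.13% of all genes. Zeb2, which maintains macrophage identity, had 18.4, 16.1, 19.6 and 17.7 CPM in C2-AKT replicates 2 to 5, against 13.04, 16.8, 13.4 and 13.5 CPM in control replicates 2 to 5. C2-AKT replicate 3 fell below control replicate 3, so the groups overlapped (log2 fold change 0.34 ± 0.11, SE, edgeR adjusted p = 0.813). Id3 and Id1 are targets of BMP signalling, and Id3 is needed for Kupffer cell development in the mouse. Id3 had 20.8, 17.8, 31.4 and 25.9 CPM in C2-AKT replicates 2 to 5, against 48.2, 36.4, 39.3 and 21.0 CPM in control replicates 2 to 5. Control replicate 5 lay inside the C2-AKT range, and the 3 other control libraries lay above it (log2 fold change -0.59 ± 0.25, SE, edgeR adjusted p = 0.946).

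Id1 had 2.28 ± 0.17 CPM in C2-AKT and 4.402 ± 2.202 CPM in control livers. Control replicate 5, at 1.86 CPM, was below every C2-AKT library, and the 3 other control libraries were above them (log2 fold change -0.95 ± 0.33, SE, edgeR adjusted p = 0.838). Rxra, the most abundant factor of the list and the partner of LXR-alpha, had a log2 fold change of -0.16. Both Id genes are also made by other liver cells.

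Of 13 tested niche signals and their receptors, 0 passed (edgeR, DESeq2 0 called), with a median of -0.03. An unadjusted p below 0.05 in edgeR was found for 1 of the 13, against 5.13% of all genes. Gdf2, which encodes BMP9 and was the most abundant by mean TPM, had 17.6 ± 1.38 CPM in C2-AKT and 17.7 ± 1.66 CPM in control livers. Dll4, a Notch ligand of sinusoidal endothelium, had 3.15 ± 0.38 CPM in C2-AKT and 2.46 ± 0.23 CPM in control livers. Its libraries did not overlap between groups, as was so for 2.98% of all genes (log2 fold change 0.35 ± 0.15, SE, edgeR adjusted p = 0.954). Il34, a ligand of CSF1R, had a log2 fold change of -0.25, and Bmp10, a BMP ligand, one of 0.41. Csf2 had no count in any library.

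General macrophage genes, 18 in number, had a median log2 fold change of 0.00, with 9 above and 9 below 0, and 0 passed (edgeR, DESeq2 0 called). The unadjusted p in edgeR was below 0.05 for 0 of the 18, against 5.13% of all genes. Lyz2, the lysozyme of myeloid cells and the most abundant of these genes by mean TPM, had 50.1 ± 7.99 CPM in C2-AKT and 53.1 ± 7.495 CPM in control livers. Summed over the list, CPM of all counts ran from 335 to 404 in C2-AKT livers and from 370 to 434 in control livers, with the lowest value in C2-AKT replicate 5. In that library, genes removed by the low-count filter held 17.2% of all counts, which lowers its sum on this scale. Aif1 had a log2 fold change of 0.24, and its groups did not overlap, as was so for 2.98% of all genes. Fcgr1 had a log2 fold change of -0.26 and Cd53 one of 0.09, and their groups overlapped.

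Genes of lipid-associated macrophages and of monocytes, 16 in number, had a median of -0.04, and 0 passed (edgeR, DESeq2 0 called). In edgeR, 2 of the 16 had an unadjusted p below 0.05, against 5.13% of all genes. Fabp5, a fatty acid binding protein, had 6.71, 3.90, 5.37 and 5.28 CPM in C2-AKT replicates 2 to 5, against 6.25, 9.85, 8.31 and 15.4 CPM in control replicates 2 to 5. C2-AKT replicate 2 exceeded control replicate 2, so the groups overlapped (log2 fold change -0.90 ± 0.27, SE, edgeR adjusted p = 0.779). Chil3, a chitinase-like protein of alternatively activated mouse macrophages, had 0.49 ± 0.13 CPM in C2-AKT and 0.95 ± 0.27 CPM in control livers. Its groups did not overlap, as was so for 2.98% of all genes (log2 fold change -0.95 ± 0.30, SE, edgeR adjusted p = 0.779). Spp1, osteopontin, the most abundant of the list, is also made by bile duct cells and had a log2 fold change of 0.03, and Plac8 had one of -0.35.

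Among 15 scavenger and efferocytosis receptors, 0 passed with all libraries and genotype as the only term (edgeR, DESeq2 0 called), with a median of 0.03. An unadjusted p below 0.05 in edgeR was found for 1 of the 15, against 5.13% of all genes. Scara5, a ferritin receptor of the class that also holds Marco and made chiefly outside macrophages, had 0.950, 0.659, 0.467 and 4.03 CPM in C2-AKT replicates 2 to 5, against 10.8, 5.71, 5.70 and 7.58 CPM in control replicates 2 to 5. Its groups did not overlap, as was so for 2.98% of all genes (log2 fold change -2.31 ± 0.60, SE, edgeR adjusted p = 0.694). C2-AKT replicate 5 stood nearest the control libraries. It passed with the title ending as a term, among the libraries with titles ending in _1, and without C2-AKT replicate 5 (lowest edgeR adjusted p 0.0115). The ending _2 belongs to C2-AKT replicate 5 alone, so with that term this library has no weight in the genotype estimate. Scara5 thus passed only where C2-AKT replicate 5 was left out or had no weight. Over the alternatives its adjusted p ranged from 0.0115 to 0.99999 and its log2 fold change from -3.72 to -1.07. Stab2, the endothelial hyaluronan receptor, had a log2 fold change of 0.19 and Cd36, the fatty acid translocase, 0.23.

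Of 16 genes of the classical complement pathway and its control beyond C1q, 0 passed (edgeR, DESeq2 0 called), with a median of -0.03. The unadjusted p in edgeR was below 0.05 for 0 of the 16, against 5.13% of all genes. C3, the central component, made mostly by hepatocytes, had 7785 ± 1564 CPM in C2-AKT and 7153 ± 786 CPM in control livers (log2 fold change 0.12). The log2 fold change was -0.22 for C2, -0.41 for C4a and -0.42 for the anaphylatoxin receptor gene C5ar1. C4a has a near-identical copy, C4b, so its value is uncertain.

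**Figure D5:**
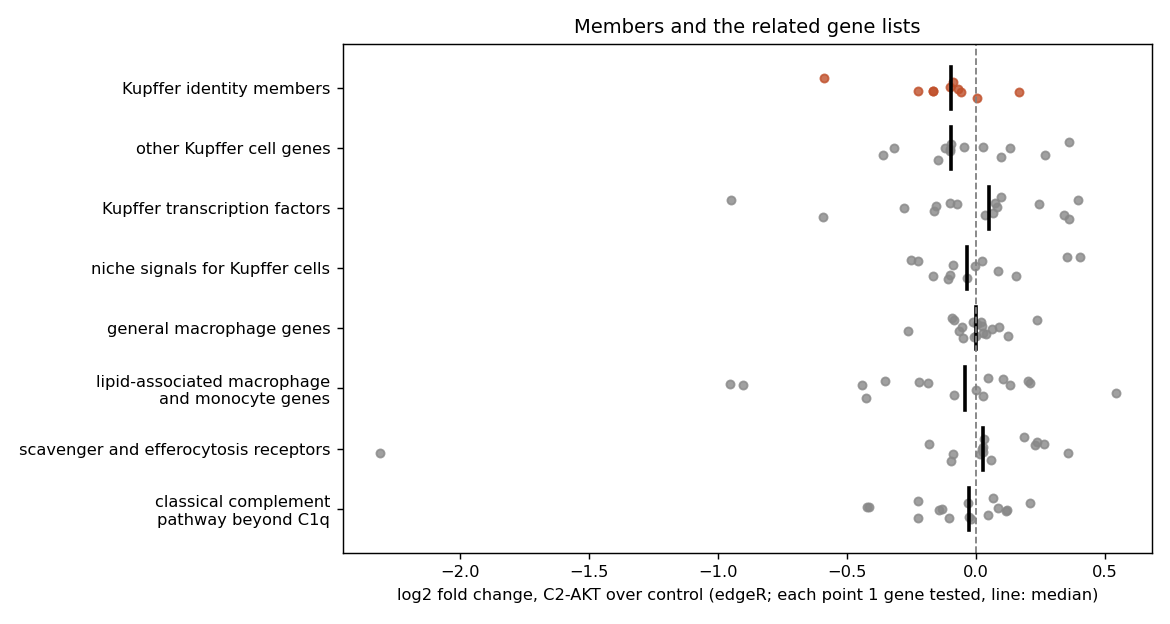
Log2 fold changes, C2-AKT over control, of the 10 Kupffer cell identity genes and 7 related lists, 1 point per gene tested and a line at each list's median. Medians lie between -0.10 and 0.05, and the point farthest from 0 is Scara5 at -2.31.

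Other cell types of the liver were checked with marker lists, in which 0 genes passed in edgeR or DESeq2. At an unadjusted p below 0.05 (5.13% of all genes) there was 1 gene each in the endothelial, neutrophil and acinar lists. After the low-count filter, 10 of 10 endothelial, 4 of 8 neutrophil and 1 of 10 acinar genes were tested. By mean TPM, Clec4g led the sinusoidal endothelial list (42.4 ± 1.84 CPM in C2-AKT, 44.9 ± 3.28 CPM in control livers). Dcn led the stellate list (154 ± 28.4 CPM in C2-AKT, 137 ± 12.4 CPM in control livers). Medians of the log2 fold change were 0.09 for endothelial, 0.07 for stellate, -0.03 for hepatocyte, -0.08 for bile duct, 0.06 for dendritic, 0.13 for erythroid and 0.24 for mesothelial and peritoneal macrophage markers. For rarer cells they were 0.35 for T and NK cells (7 of 9 genes tested), 0.36 for B cells (6 of 6) and -0.49 for neutrophils (4 of 8). Those 3 lists summed to at most 8.58 CPM of all counts in any library. The part of shifts in other cell types in the values of the 10 genes was not tested.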

How the data were processed

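Liver polyadenylated RNA was measured in 4 C2-AKT and 4 control libraries, grouped by their titles and genotypes. The submitters' processing notes name StringTie 2.1.3b, HISAT2 2.1.0, Trimmomatic and bcl2fastq 2.20.0, with builds mm10 and GRCm38. Their settings, the strand and how reads were counted were not given in the sources used here. Whole-number read counts, FPKM and TPM per gene and library make up the deposited table, in which the deposited FPKM are relative to transcript length and library size and the deposited TPM to length and a fixed sum per library, per the file headers. Coordinates are those of RefSeq on GRCm38.p6.

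Counts were filtered with filterByExpr, scaled by TMM and tested with edgeR 4.0.16 (quasi-likelihood test, two-sided, Benjamini-Hochberg over 15686 genes, threshold 0.05) in R 4.3.3. On simulated data with known changes and the same relative spread for every gene, edgeR stayed within the limit set on false calls. DESeq2 exceeded the limit first set, which was then widened for the alternatives, so its counts of calls may be too high. SE is the log2 fold change over the square root of F, and intervals are 95% intervals. Values are CPM after TMM scaling unless given as CPM of all counts. Ratios had 0.1 CPM added to each gene. DESeq2 1.42.0, limma 3.58.1 and other scalings, filters and sample sets were alternatives. Transcripts were compared over 50-base stretches on both strands in GENCODE vM21.

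The 10 genes and all lists were chosen with earlier results of these data known. Named were the 10 genes, Gt(ROSA)26Sor, Akt1, Akt2 and Alb, up to 3 genes of smallest p and the most abundant one per related list, the most abundant and any called gene per cell type list, and the 5 genes of most similar pattern with a mean of at least 1 CPM. The most abundant gene of a list was the one with the highest mean TPM, and others of the list can be higher in CPM. Not every gene so selected is printed. Protein sequences and 3 of the 10 promoter windows were not used here.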

Additional observations from a re-analysis of the deposited data

Results flagged for a closer look

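The extremes of the 10 genes and 4 ratios were checked in each group of 4 libraries, 28 groups in all, by the gap of the highest or lowest library to its nearest neighbour over the range (Dixon's 95% limit). Chance passes about 1 in 20 such groups. In C2-AKT livers, the lowest Cd5l value, 77.0 CPM in replicate 2, was set apart by 0.896 of the range. In control livers, the lowest C1qb value, 37.9 CPM in replicate 4, was set apart by 0.936 of a narrow range. The lowest log2 ratio of Clec4f to Adgre1 in control livers, 1.95 in replicate 3, was set apart by 0.903. Control replicate 3 also had the highest Marco, Timd4 and Adgre1 values of the 8 libraries.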

How the results depend on the processing

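Over 23 alternatives, 0 of the 10 genes was called in any setting, and the lowest adjusted p of the 230 values was 0.559, for Csf1r with the title ending (none, _1 or _2, of unstated meaning) as a term. Only C2-AKT replicate 5 has the ending _2, so that term leaves this library no weight in the genotype estimate. At an unadjusted p below 0.05 there were 3 of these 230 values, for Csf1r and Cd5l. The median log2 fold change ranged from -0.17 to -0.01. The sign turned in 14 values: C1qb in 10 settings, Adgre1, Marco and Timd4 when control replicate 3 was left out, and Adgre1 when C2-AKT replicate 5 was. Leaving out 1 library at a time, Clec4f ranged from -0.15 to -0.04, Vsig4 from -0.25 to -0.11, Cd5l from -0.31 to -0.15, Timd4 from -0.30 to 0.01, Marco from -0.84 to 0.07, Adgre1 from -0.18 to 0.07 and Csf1r from 0.11 to 0.22. Marco stood at -0.31 with limma on log2(FPKM + 1), -0.28 with limma-voom and -1.09 among the libraries with titles ending in _1, where the median was -0.15. None of the 4 ratios passed in the 10 alternatives whose exact test can go below 0.05, with exact p from 0.0857 to 1.0. Sign flips over the replicate numbers (smallest possible exact p 0.125, and the same differences by construction) and titles ending in _1 (smallest 0.1) could not pass. Without the sign flips, the ratio of Timd4 to Clec4f kept its sign in 9 of 11 alternatives and that of Clec4f to Adgre1 in 6 of 11. Among the related lists, 0 genes were called by genotype alone and 1, Scara5, with the title ending as a term, among titles ending in _1 and with that term after leaving out C2-AKT replicate 5, an alternative added after seeing the data. Leaving out each library in turn gave 0 to 1. Over all genes, edgeR called 4, DESeq2 57, edgeR among titles ending in _1 17, and leaving out each library in turn gave 1 to 17. The replicate block called 4 genes of all and 0 of the 10, with a median of -0.10. Libraries with the same number correlated in their deviations at -0.19, 0.02, 0.12 and -0.06, so the numbers were not taken to pair them. Depth, from 51.4 M to 63.8 M counts (M, mega), leaves each of the 10 genes at 258 counts or more in every library.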
